A study of Mus musculus with 15 samples.

Results

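The genes described here encode the machinery that carries a new secretory protein into the endoplasmic reticulum (ER), cuts off its signal peptide and attaches its first sugar tree. The set holds 34 mouse genes in 5 groups: 7 genes of the signal recognition particle (SRP) and its receptor, 8 of the Sec61 channel and its partners, 4 of the TRAP complex, 5 of signal peptidase and 10 of the oligosaccharyltransferase (OST). They were chosen by symbol, as known subunits, with earlier results of these data known. Shares of all genes given beside their counts are therefore a description, not a test of the set. Each symbol matched 1 of the 51912 gene rows of the deposited expression table, and all 34 passed the filter on low counts that left 15692 genes to be tested.

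A protein bound for secretion is recognised by SRP as its signal peptide leaves the ribosome, and SRP carries the ribosome to its receptor on the ER membrane. The chain then passes through the Sec61 channel, beside which TRAP, TRAM and the Sec62 and Sec63 proteins sit. Signal peptidase removes the signal peptide, and OST transfers a preassembled glycan from a lipid carrier to asparagine residues. Plasma cells, which secrete antibody at a high rate, are known for an expanded ER, and antibody heavy chains are N-glycosylated, those of IgE at more sites than those of IgG.

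The samples were 15 RNA-seq libraries from wild-type mouse B cells, 3 biological replicates in each of 5 groups, and the sequencing was of polyadenylated RNA. Culture lasted 6 days on a layer of 40LB feeder cells, with 100 ng/ml of IL-4. The group named D6 is the unsorted culture at day 6 (bulk cells with no purification step named in the labels). The other 4 groups were taken off the feeders, kept 2 days more without stimulation and sorted at day 8 into IgE-expressing and IgG1-expressing cells, each as plasma cells (PC) and as cells called iGC in the labels: IgE PC, IgG1 PC, IgE iGC and IgG1 iGC. All 4 sorted groups therefore shared the IL-4, the feeder phase and its withdrawal, and none was compared with cells kept on feeders for 8 days. The markers and gates of the sort, the number of animals, and whether same-numbered libraries came from 1 culture are not given in the sources used here, so p-values measure the spread between these libraries.

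Library totals ranged from 17740876 to 54067953 expected counts. The summed level of 6 plasma cell markers (Sdc1, Prdm1, Xbp1, Irf4, Jchain and Bhlha15) was 9915 to 10995 TPM (transcripts-per-million values, scaled for length) in IgE PC and 6379 to 7722 in IgG1 PC, against 318 to 680 in the iGC and D6 libraries, so the PC label matched these markers. The summed level of 8 B cell markers was 1942 to 2151 TPM in IgE PC, 2774 to 3289 in IgG1 PC and 7347 to 7717 in the iGC libraries. Immunoglobulin genes and Jchain held 15.3% to 21.7% of counts in the PC libraries and 1.39% to 1.62% in the others. T cell, myeloid and erythroid marker sums were each under 8 TPM in every library. IgG1 PC replicate 1 stood apart from replicates 2 and 3 of its group: the median coefficient of variation of the 34 genes was 17.5% in IgG1 PC and 3.17% to 3.79% in the other groups, and replicate 1 was the highest IgG1 PC library for 24 of the 34. The share of all genes with replicate 1 highest was not counted. For the 34 genes together, counts of called genes in the contrasts that use this group are given with and without that library. Counts by complex, of at least 2-fold differences, of other gene lists and under other scalings are given only with it. Shares of all genes called were counted only in the main fit of all libraries, not in the alternative fits. Without IgG1 PC replicate 1, 31 of the 34 rose and 1 fell from IgG1 iGC to IgG1 PC, and 28 rose and 3 fell from D6 to IgG1 PC.

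Of the 34 genes, 32 rose and 1 fell from IgE iGC to IgE PC, and 31 rose and 1 fell from IgG1 iGC to IgG1 PC. A gene is said to have risen, fallen or been called where edgeR's quasi-likelihood test gave a Benjamini-Hochberg adjusted p under 0.05 over all genes tested. Over all 15692 genes, 30.5% were called higher and 33.6% lower in the IgE comparison, and 30.1% higher and 29% lower in the IgG1 comparison. The rise was at least 2-fold for 31 of the 34 genes in IgE (13.7% of all genes) and for 24 in IgG1 (14.1% of all genes). The median log2 fold change of the 34 was 2.35 in IgE and 1.74 in IgG1, beside -0.078 and 0.013 for all genes tested. With libraries scaled by total count instead of by edgeR's trimmed mean (TMM), the median over all genes moved to -0.55 in IgE and -0.22 in IgG1, and 32 and 30 of the 34 were called higher, with 2 called lower in each isotype.

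**Figure D1:**
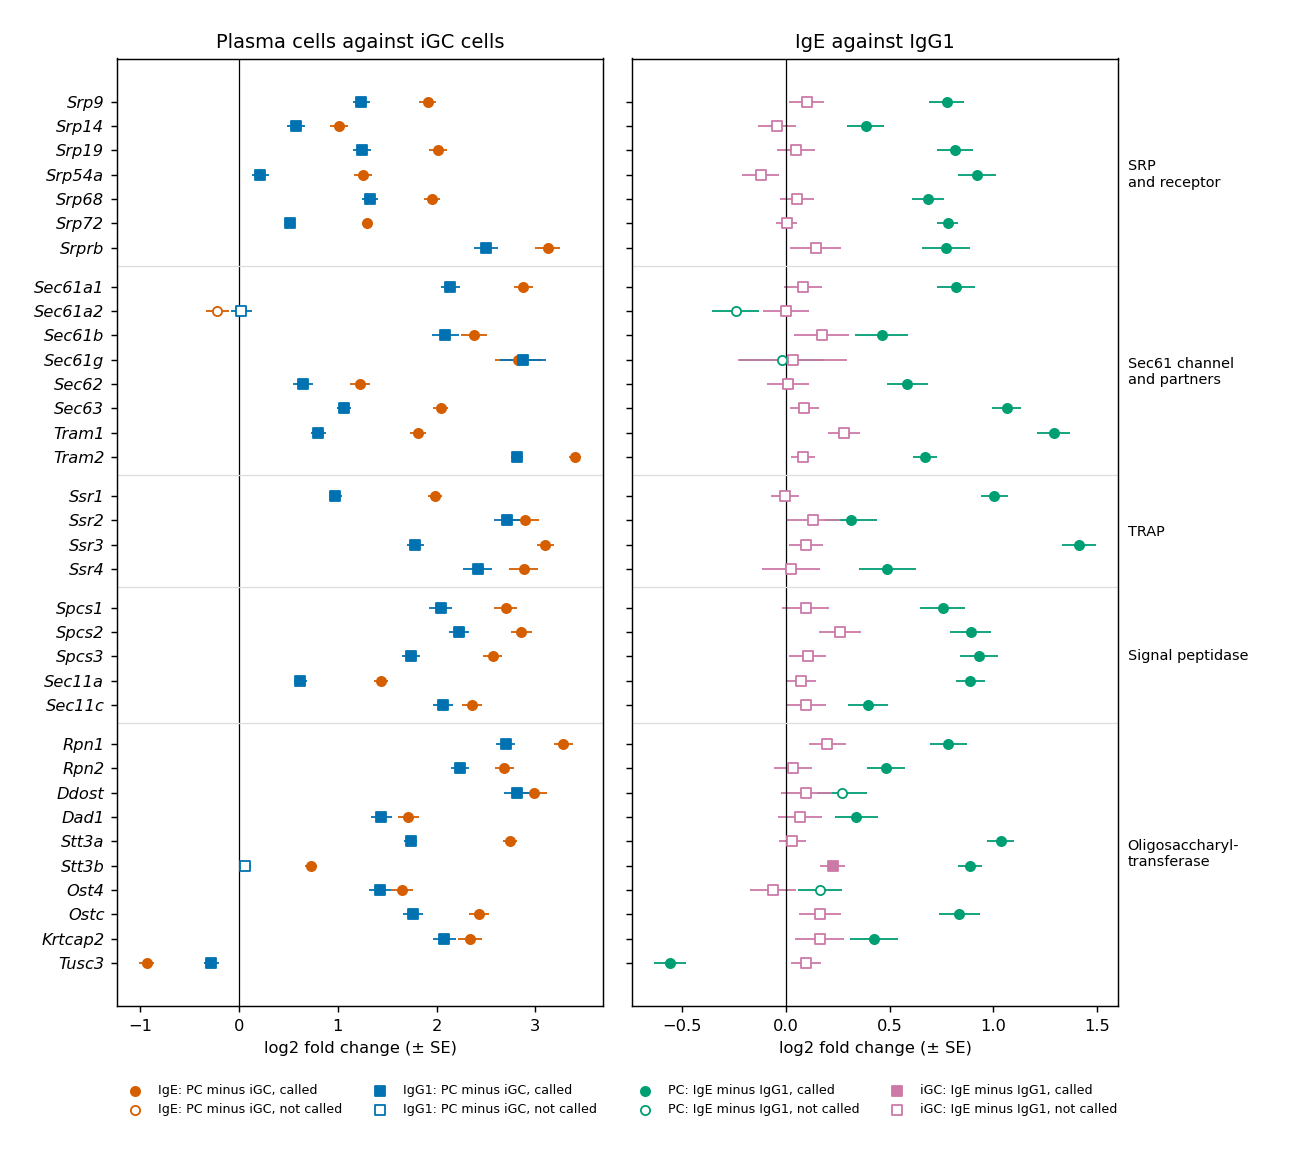
Log2 fold change with its standard error (x axis) of each of the 34 genes (y axis, grouped by complex). The left panel shows PC minus iGC in IgE (circles) and IgG1 (squares), and the right panel shows IgE minus IgG1 in PC (circles) and in iGC (squares); filled symbols passed the test. Tusc3 lies left of 0 in both isotypes in the left panel, and in the right panel the PC symbols lie to the right of the iGC symbols for most genes.

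Among the SRP genes, the largest rise in both isotypes was that of Srprb, the membrane-anchored subunit of the SRP receptor. Srprb stood at 256, 245 and 267 CPM (TMM-scaled counts-per-million values) in IgE PC and at 29.9, 28.5 and 29.8 in IgE iGC (log2 fold change 3.13, SE 0.13; edgeR adjusted p = 8.82e-12). In IgG1 cells it was at 193, 125 and 133 in PC and 25.7, 27.1 and 26.9 in iGC (log2 fold change 2.50, SE 0.12; edgeR adjusted p = 2.33e-10). Every PC library was above every iGC library, and IgG1 PC replicate 1 was above replicates 2 and 3. Srp9 and Srp14, which bind the end of SRP that slows translation, rose by 1.91 and 1.01 (log2) in IgE and by 1.24 and 0.58 in IgG1. Srp19, which helps assemble the particle on its RNA, rose by 2.02 and 1.25. The paired subunits Srp68 and Srp72 rose by 1.96 and 1.29 in IgE and by 1.32 and 0.52 in IgG1. Srp54a encodes the GTPase that binds the signal peptide, and its rise of 1.26 in IgE was beside a log2 fold change of 0.22 in IgG1 (SE 0.089; edgeR adjusted p = 0.0483) that turned to -0.016 under total-count scaling and missed the threshold under most other settings. Srp54a has near-identical copies, Srp54b and Srp54c, and its counts were fractional in all 15 libraries, so reads were divided between genes and its value is uncertain.

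In the channel group, Tram2 changed most in IgE. The TRAM proteins lie next to the channel and contact the entering chain, and Tram2 is the homolog of Tram1. Tram2 was at 662, 656 and 638 CPM in IgE PC and 65.0, 60.8 and 59.7 in IgE iGC, a difference of 10.5-fold (log2 3.40, SE 0.062; edgeR adjusted p = 3.20e-15). In IgG1 it was at 433, 401 and 394 in PC and 61.7, 55.8 and 57.9 in iGC (log2 2.81, SE 0.060; edgeR adjusted p = 1.97e-14). The PC and iGC libraries did not overlap in either isotype. Tram1 was at 724, 652 and 799.8 CPM in IgE PC against 204, 204 and 212 in IgE iGC, and at 314, 315 and 260.4 in IgG1 PC against 168, 169 and 172 in IgG1 iGC, with log2 fold changes of 1.81 and 0.80, both called.

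The channel itself is built of an alpha subunit, which forms the pore, and the small beta and gamma subunits. Sec61a1 was at 1209.8, 1188 and 1269.8 CPM in IgE PC and 170.4, 168 and 161 in IgE iGC, and at 843, 616 and 621 in IgG1 PC and 159, 159.8 and 153 in IgG1 iGC. Its log2 fold changes were 2.88 (SE 0.10) and 2.14 (SE 0.10), both called. Its paralog Sec61a2 was far lower, at 8.30, 10.3 and 8.99 CPM in IgE PC and 9.64, 10.7 and 11.9 in IgE iGC, and was called in neither isotype. Its log2 fold change in IgE was -0.22, but it was called lower under total-count scaling (-0.69; edgeR adjusted p = 2.07e-04) and without IgE PC replicate 2 (-0.31; edgeR adjusted p = 0.0439). In IgG1 the Sec61a2 values were 9.48, 12.0 and 11.0 in PC and 10.8, 9.74 and 11.6 in iGC, so the groups overlapped. Sec61g had the largest rise of the group in IgG1, from 1.45, 1.15 and 1.85 CPM in iGC to 14.5, 9.30 and 9.02 in PC (log2 2.87, SE 0.23; edgeR adjusted p = 6.81e-08). In IgE it went from 1.21, 1.97 and 1.34 to 9.40, 12.1 and 10.7 (log2 2.82, SE 0.24). The Sec61g counts were low and, like those of Srp9, fractional in all 15 libraries, and those of Sec61b and Spcs2 were fractional in 13, so that these genes share reads with other loci. Sec61b rose by 2.38 and 2.09 (log2), and Sec62 and Sec63, which assist chains that engage the channel weakly, rose by 1.22 and 2.04 in IgE and by 0.64 and 1.06 in IgG1.

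All 4 genes of TRAP, a complex bound beside the channel that aids insertion of some signal peptides, rose in both isotypes. Ssr3 had the largest rise of them in IgE, from 181, 163 and 174 CPM in iGC to 1466, 1359 and 1621 in PC (log2 3.10, SE 0.087; edgeR adjusted p = 1.38e-13). In IgG1 it went from 154, 164 and 167 to 547, 626 and 498 (log2 1.78, SE 0.083). The largest TRAP rise in IgG1 was that of Ssr2, from 68.1, 63.7 and 61.1 CPM to 553, 345 and 369 (log2 2.71, SE 0.13; edgeR adjusted p = 2.17e-10). Ssr2 was at 72.5, 70.0 and 68.6 in IgE iGC and at 521, 517 and 536 in IgE PC (log2 2.90, SE 0.13). Ssr1 and Ssr4 rose by 1.99 and 2.88 in IgE and by 0.98 and 2.42 in IgG1. The order of the 4 rises thus differed: Ssr1 was the lowest in both isotypes, while Ssr3 was the highest in IgE and the third in IgG1.

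The 5 signal peptidase genes rose in both isotypes as well. Spcs2, an accessory subunit, had the largest rise in each: it was at 721, 697 and 746 CPM in IgE PC against 106, 98.5 and 93.9 in IgE iGC (log2 2.86, SE 0.11; edgeR adjusted p = 2.31e-12). The IgG1 values were 473, 365 and 329 in PC against 82.5, 83.5 and 83.2 in iGC (log2 2.23, SE 0.10; edgeR adjusted p = 8.04e-11). Spcs1 and Spcs3, the other accessory subunits, rose by 2.70 and 2.57 in IgE and by 2.04 and 1.74 in IgG1. The peptide bond is cut by either of the alternative catalytic subunits Sec11a and Sec11c, which rose unequally. Sec11c went from 146, 137 and 157 CPM to 715, 742 and 800.3 in IgE and from 132, 136 and 143 to 690.1, 531 and 494 in IgG1. Sec11a went from 45.6, 42.0 and 39.9 to 111, 117 and 118 in IgE and from 39.4, 39.8 and 42.4 to 69.1, 59.4 and 58.7 in IgG1. Their log2 fold changes were 2.36 and 1.44 in IgE and 2.06 and 0.62 in IgG1, all 4 called.

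OST exists in forms built on either of the catalytic subunits Stt3a and Stt3b. The Stt3a form sits at the channel and glycosylates chains as they enter, with Ostc and Krtcap2 as its own subunits. The Stt3b form acts on sites that were skipped and carries an oxidoreductase, either Tusc3 or Magt1. Rpn1, Rpn2, Ddost, Dad1 and Ost4 are shared by both forms.

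The largest OST rise in IgE was that of Rpn1, from 160.1, 154 and 148 CPM in iGC to 1509, 1482 and 1504 in PC (log2 3.28, SE 0.10; edgeR adjusted p = 2.09e-13). In IgG1 it went from 136, 135 and 132 to 1053, 774 and 786 (log2 2.70, SE 0.094). The largest in IgG1 was that of Ddost, from 93.0, 94.6 and 87.0 CPM to 836, 541 and 554 (log2 2.81, SE 0.13; edgeR adjusted p = 8.82e-11). Ddost was at 98.7, 96.1 and 99.3 in IgE iGC and 775, 768 and 787 in IgE PC (log2 2.99, SE 0.13). For both genes no PC library came within reach of an iGC library. Among the other shared subunits, Rpn2, Dad1 and Ost4 rose by 2.68, 1.71 and 1.65 in IgE and by 2.24, 1.44 and 1.43 in IgG1. Ostc and Krtcap2 rose by 2.43 and 2.34 in IgE and by 1.76 and 2.08 in IgG1.

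In the forms of OST, Stt3a rose in both isotypes, Stt3b in IgE by less, Tusc3 fell and Magt1 rose. Stt3a went from 155, 148 and 160.3 CPM in IgE iGC to 1029, 1009 and 1055 in IgE PC (log2 2.74, SE 0.069; edgeR adjusted p = 4.84e-14). In IgG1 it went from 148, 152 and 154 to 548, 515 and 447 (log2 1.74, SE 0.066; edgeR adjusted p = 7.91e-12). Stt3b went from 487, 465 and 456 in IgE iGC to 787, 773 and 768 in IgE PC (log2 0.72, SE 0.058; edgeR adjusted p = 2.11e-08). In IgG1 Stt3b was at 399, 411 and 396 in iGC and 435, 436 and 388 in PC, groups that overlapped, with a log2 fold change of 0.063 (SE 0.058; edgeR adjusted p = 0.368) that was -0.17 under total-count scaling and then called lower (edgeR adjusted p = 0.0198). Tusc3 was the gene of the 34 that fell in each isotype: it was at 21.6, 19.8 and 19.2 CPM in IgE iGC and 11.1, 10.5 and 10.1 in IgE PC (log2 -0.94, SE 0.077; edgeR adjusted p = 2.82e-08). In IgG1 it was at 18.3, 19.5 and 18.9 in iGC and 14.3, 15.9 and 16.4 in PC (log2 -0.28, SE 0.074; edgeR adjusted p = 0.00437), without overlap. Magt1, the alternative to Tusc3 and not one of the 34, was at 74.9, 76.6 and 75.7 CPM in IgE iGC and 565, 531 and 609 in IgE PC (log2 2.91, SE 0.080; edgeR adjusted p = 1.01e-13). In IgG1 Magt1 was at 71.2, 66.6 and 71.3 in iGC and 227, 236 and 188 in PC (log2 1.64, SE 0.076).

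**Figure D2:**
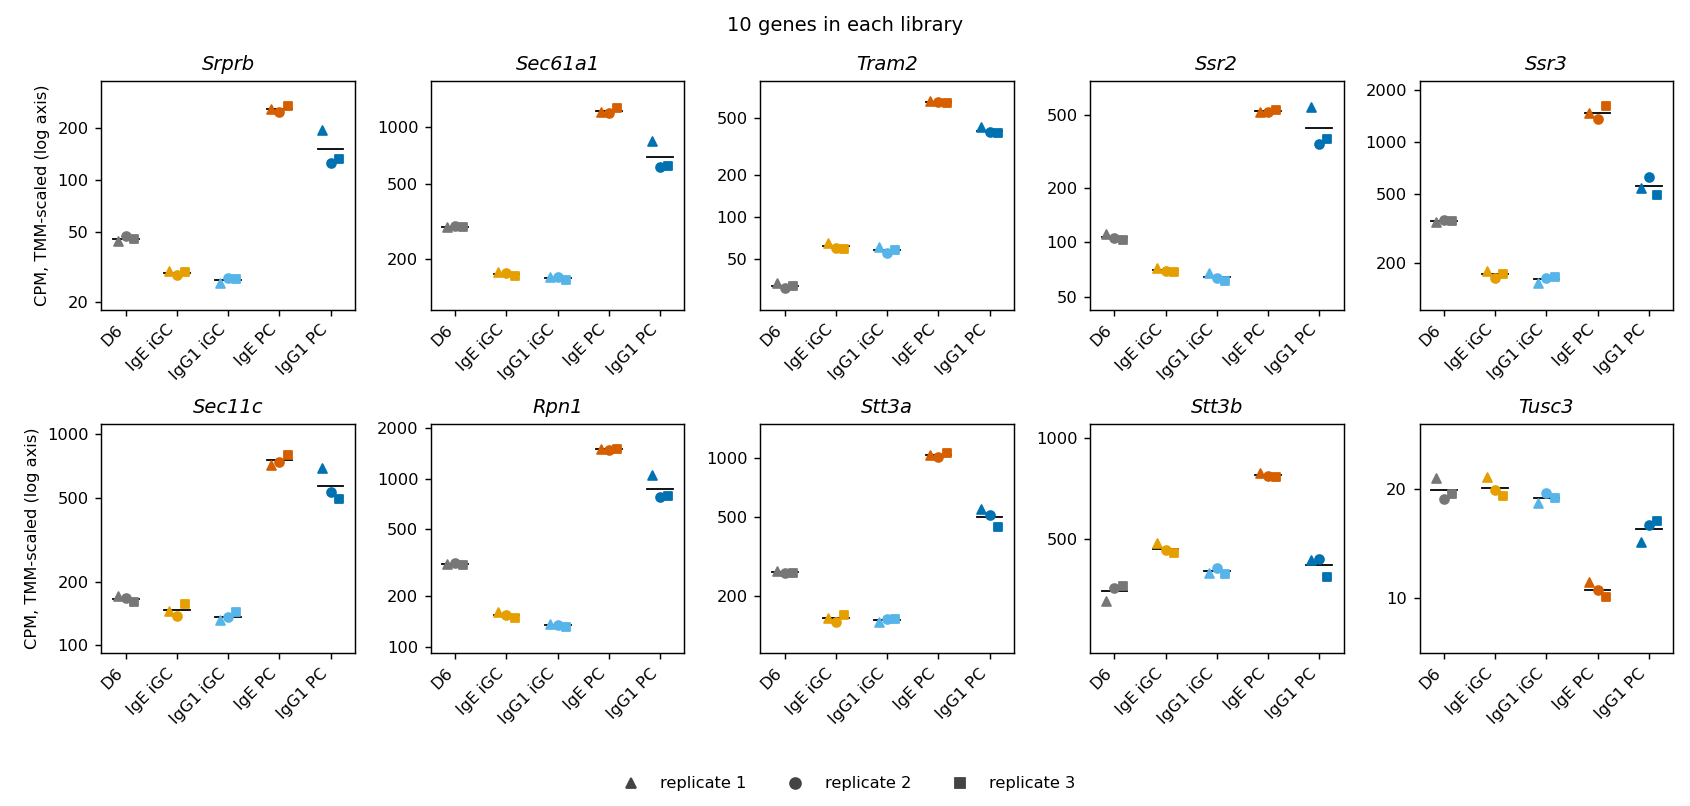
Level of 10 of the 34 genes in each of the 15 libraries (y axis: CPM scaled by TMM, log axis; x axis: group), with 1 symbol shape per replicate, 1 colour per group and a line at each group's mean. In 9 of the panels the IgE PC symbols lie above the D6 and iGC symbols, while Tusc3 is lowest in IgE PC; replicate 1 of IgG1 PC lies apart from replicates 2 and 3 in several, such as Srprb, Sec61a1 and Ssr2.

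Because the genes moved together, the DNA before their start sites was searched for motifs bound by factors of the unfolded protein response, the ER stress pathway whose factor Xbp1 is known to act in plasma cells. RefSeq promoter windows (GRCm38.p6) of 250 bases before to 50 after the start were matched for 25 of the 34 genes, with 27 windows. On both strands, the ER stress response element ERSE (CCAAT, a gap of 9 bases and CCACG) was in 0 of the 27 windows and in 0.119% of all 32851 windows. ERSE-II (ATTGG, 1 base and CCACG) was in 1 window, that of Krtcap2, and in 0.0365% of all windows. The UPRE core (TGACGTGG) and the CRE (TGACGTCA) were in 0 windows of the set and in 0.676% and 1.79% of all windows. The CCAAT box and the CCACG half-site on their own were added after those searches: CCAAT was in 48.1% of the set's windows and 37.4% of all windows, and CCACG in 66.7% and 32.8%. By gene, CCACG was found for 17 of the 25 (68%) and for 35.5% of all genes with a window. An ERSE-II match also contains a CCAAT box, read on the other strand, and a CCACG half-site. These matches describe letters in the windows and are not measured binding sites. The set of all windows was matched to the 27 neither in expression nor in base composition.

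The stretches shown are the ERSE-II match of Krtcap2 and the 250 bases before the start of Srprb and Rpn1, which rose most in IgE within their complexes, and of Stt3a and Stt3b, the catalytic pair that differed. Capitals mark CCAAT and CCACG on either strand (ATTGG and CGTGG are the same motifs read on the other strand). Coordinates are GRCm38.p6, each sequence is 5′ to 3′ on its gene's strand, and the Krtcap2 match covers bases 18 to 28 counted from the start as 1.
Krtcap2 (chr3:89246480-89246509, plus strand): agggacacggATTGGaCCACGgacggggcg
Srprb (chr9:103202066-103202315, minus strand): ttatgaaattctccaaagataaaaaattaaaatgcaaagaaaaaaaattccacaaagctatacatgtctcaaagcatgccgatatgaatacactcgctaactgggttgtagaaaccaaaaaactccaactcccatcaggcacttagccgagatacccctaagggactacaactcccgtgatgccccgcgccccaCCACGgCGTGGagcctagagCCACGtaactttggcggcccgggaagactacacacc
Rpn1 (chr6:88084223-88084472, plus strand): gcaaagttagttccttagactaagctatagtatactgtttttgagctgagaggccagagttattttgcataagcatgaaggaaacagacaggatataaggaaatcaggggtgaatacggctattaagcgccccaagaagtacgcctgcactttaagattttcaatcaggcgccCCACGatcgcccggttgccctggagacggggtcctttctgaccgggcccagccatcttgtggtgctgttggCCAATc
Stt3a (chr9:36767623-36767872, minus strand): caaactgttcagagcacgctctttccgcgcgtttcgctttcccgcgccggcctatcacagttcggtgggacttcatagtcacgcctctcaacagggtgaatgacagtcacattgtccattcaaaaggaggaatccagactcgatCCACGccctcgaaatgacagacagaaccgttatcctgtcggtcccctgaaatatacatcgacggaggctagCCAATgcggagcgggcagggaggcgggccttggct
Stt3b (chr9:115310469-115310718, minus strand): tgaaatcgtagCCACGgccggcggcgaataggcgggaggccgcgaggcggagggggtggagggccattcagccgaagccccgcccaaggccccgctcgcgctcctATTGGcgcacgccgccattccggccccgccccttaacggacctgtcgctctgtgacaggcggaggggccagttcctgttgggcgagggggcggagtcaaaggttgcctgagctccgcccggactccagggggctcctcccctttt
Srprb carried 3 CCACG half-sites within 56 bases of its start and no CCAAT box. Stt3a and Stt3b each carried 1 CCAAT box and 1 half-site, so both genes of the pair held both motifs.

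Between the plasma cells of both isotypes, 29 of the 34 genes were higher in IgE PC, 1 was lower and 4 were not called. Over all genes, 27.4% were called higher and 30.7% lower, and the median log2 difference was 0.76 for the 34 and -0.052 for all genes. All 7 SRP genes, 6 of 8 channel genes, all 4 TRAP genes, all 5 signal peptidase genes and 7 of 10 OST genes were higher in IgE PC. The difference was called and at least 2-fold for 5 of the 34 (3.83% of all genes): Tram1, Sec63, Ssr1, Ssr3 and Stt3a. Under total-count scaling the median of all genes moved to -0.30, and 22 of the 34 were called higher and 2 lower.

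The largest difference was in the TRAP gene Ssr3, whose IgE PC values (1466, 1359 and 1621 CPM) were all above its IgG1 PC values (547, 626 and 498), with a log2 difference of 1.41, SE 0.082 and an edgeR adjusted p of 2.62e-09. Among the channel genes, Tram1 differed most, by 1.29 (SE 0.080; edgeR adjusted p = 4.54e-09). Among the SRP genes, Srp54a did, at 307, 283 and 312 CPM in IgE PC and 150.5, 188 and 137 in IgG1 PC (log2 0.92, SE 0.089; edgeR adjusted p = 4.91e-07). In signal peptidase, Spcs3 was at 804, 741 and 834 CPM in IgE PC and 445, 459 and 345 in IgG1 PC (log2 0.93, SE 0.089; edgeR adjusted p = 4.36e-07). In OST, Stt3a differed most, by 1.03 (SE 0.065; edgeR adjusted p = 5.44e-09), and Stt3b by 0.89. For each of these genes every IgE PC library lay above every IgG1 PC library. Tusc3 was lower in IgE PC, with a log2 difference of -0.56 (SE 0.077; edgeR adjusted p = 1.78e-05), and Magt1 was higher by 1.39 (SE 0.075; edgeR adjusted p = 1.26e-09). The 4 genes not called were Sec61a2 (-0.24), Sec61g (-0.018), Ddost (0.27) and Ost4 (0.16).

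The width of the IgG1 PC group bears on these counts. IgG1 PC replicates 2 and 3 were both below every IgE PC library for 32 of the 34 genes, while replicate 1 was above the lowest IgE PC library for 7. The 7 include Tusc3 and Sec61a2, whose log2 differences were negative. Shares of all genes with these patterns were not counted. Without IgG1 PC replicate 1, 33 of the 34 were called, 31 higher and 2 lower in IgE PC. Ddost (log2 0.50) and Ost4 (0.35) were then higher, and Sec61a2 (-0.32) was lower. The share of all genes called without that library was not counted. Ssr2, called in the fit of all libraries with a difference of 0.31, missed the threshold when any of the other 5 PC libraries was left out. With only the PC groups in the fit, Ssr2 (edgeR adjusted p = 0.143) and Dad1 (edgeR adjusted p = 0.0652) were not called. Replicate 1 also had the largest immunoglobulin share of its group, 21.7% of counts against 15.3% and 16.1% in replicates 2 and 3, and 19.8% to 21.5% in IgE PC. The part of this share in the isotype difference was not tested.

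The size of the isotype difference varied within complexes, and it went with transcript length. Within TRAP, Ssr1 and Ssr3 differed by 1.00 and 1.41, and Ssr2 and Ssr4 by 0.31 and 0.49. Expected counts divided by TPM are proportional to the effective length used by the authors' quantification. Across the 34 genes, this relative length and the log2 difference between IgE PC and IgG1 PC had a Spearman rho of 0.516, and across 12289 genes tested with over 1 TPM in a PC library it was 0.227. Without IgG1 PC replicate 1 the values were 0.462 and 0.146. Within the IgG1 PC group, the log2 difference of replicate 1 from replicates 2 and 3 had a rho of -0.54 with length over the 34 genes and of -0.432 over all. Genes share libraries and are not independent, so these are descriptions, and the part of length in the isotype difference was not tested.

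**Figure D3:**
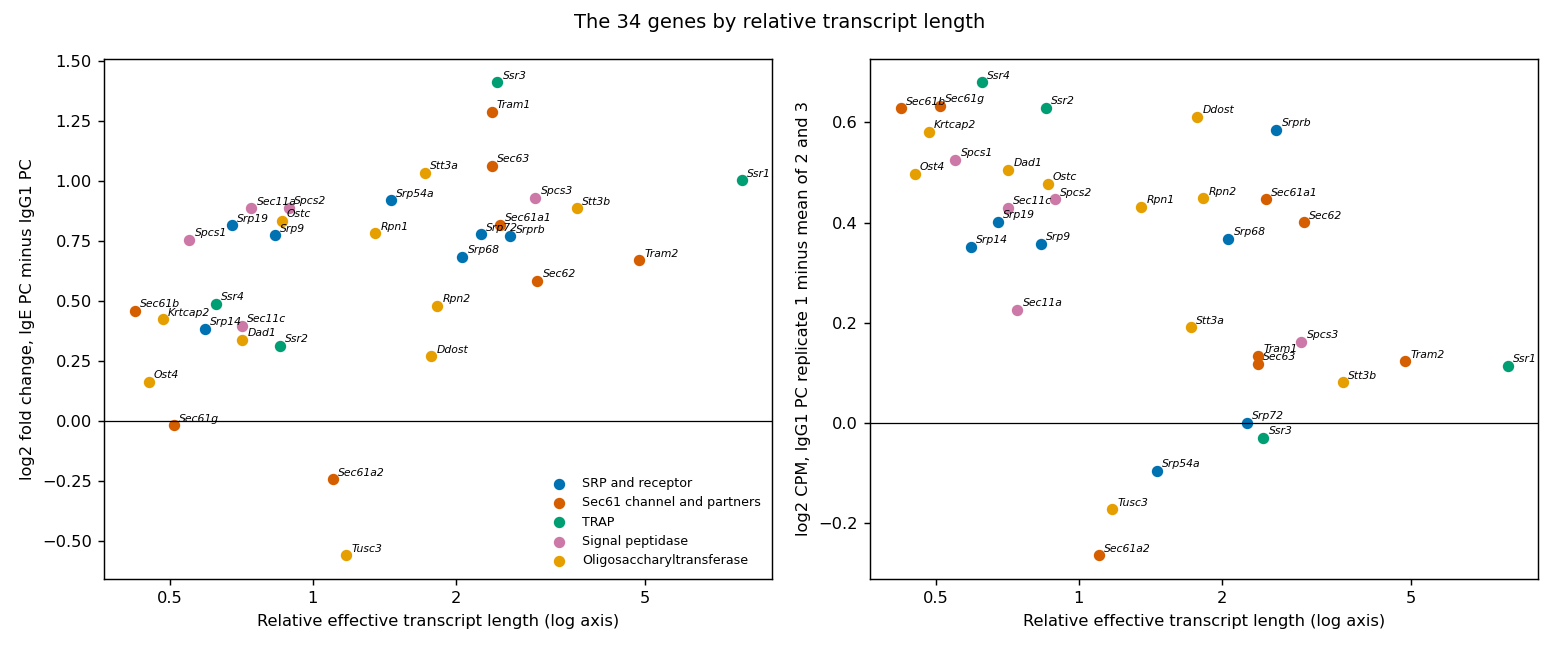
Relative effective length (x axis, log10) and log2 difference (y axis) of the 34 genes, coloured by complex; the left panel shows IgE PC minus IgG1 PC and the right panel IgG1 PC replicate 1 minus replicates 2 and 3. Shorter transcripts tend to lie lower in the left panel (rho 0.516) and higher in the right panel (rho -0.54).

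Markers of other cells moved with the isotype too. The summed B cell markers were higher in IgG1 PC (2774 to 3289 TPM) than in IgE PC (1942 to 2151), and the summed plasma cell markers were lower (6379 to 7722 against 9915 to 10995). Jchain carried most of the plasma cell sum, with a mean of 5484 TPM in IgG1 PC and 8763 in IgE PC. Xbp1 (1024 and 948 TPM) and Prdm1 (50.4 and 48.1), factors of the plasma cell programme, had the higher mean in IgG1 PC, and Sdc1, Irf4 and Bhlha15 in IgE PC. The summed level of 11 fibroblast genes, a list for the feeder cells, was 29.4 to 62.1 TPM in IgG1 PC and 7.04 to 10.6 in IgE PC, where Lum and Postn were at 0. Thy1 had the highest mean of the list in both, 13.6 TPM in IgG1 PC and 2.38 in IgE PC. In such bulk samples, fewer cells of a type and less RNA per cell cannot be told apart. The part of these markers in the isotype difference was not tested.

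The interaction, the change from iGC to PC in IgE minus that in IgG1, tested whether the rise itself differed between isotypes. Its relation to transcript length was not examined. It shares the PC libraries, among them IgG1 PC replicate 1, with the comparison of the PC groups, and is not separate evidence. It was called for 24 of the 34 genes, 23 with a larger rise in IgE and 1, Tusc3, with a larger fall in IgE; over all genes 19.8% were called in the first direction and 23.1% in the other. All 7 SRP genes, 5 of 8 channel genes, 2 of 4 TRAP genes, 4 of 5 signal peptidase genes and 5 of 10 OST genes had a larger rise in IgE. The median was 0.63 log2 for the 34 and -0.062 for all genes. The largest by complex were Srp54a (1.04, SE 0.13), Tram1 (1.01, SE 0.11), Ssr3 (1.31, SE 0.11), Spcs3 (0.83, SE 0.13) and Stt3a (1.00, SE 0.092), with edgeR adjusted p values of 1.34e-05, 5.36e-06, 6.31e-07, 1.10e-04 and 9.38e-07. Tusc3 had -0.65 (SE 0.11; edgeR adjusted p = 1.93e-04). Without IgG1 PC replicate 1 the count was 32, of which 31 had the larger rise in IgE. Whether calls over all genes grew alike in that fit was not counted.

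In iGC cells few differences between the isotypes were called. Between IgE iGC and IgG1 iGC, 1 of the 34 genes was called, Stt3b, higher in IgE iGC. Over all genes 1.99% were called higher and 1.88% lower. An unadjusted edgeR p under 0.05 was found for 4 of the 34 and for 2348 of all 15692 genes. Stt3b was at 487, 465 and 456 CPM in IgE iGC and 399, 411 and 396 in IgG1 iGC, without overlap (log2 0.22, SE 0.058; edgeR adjusted p = 0.0427). That call was lost on leaving out any 1 of those 6 libraries. Tram1 had a log2 difference of 0.28 that missed the threshold (SE 0.079; edgeR adjusted p = 0.0648) and was called by DESeq2. The median difference of the 34 was 0.086, beside 0.0077 for all genes.

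The day 6 culture lay between the sorted groups. For 26 of the 34 genes the group means of TMM-scaled CPM ran in the order IgE PC, IgG1 PC, D6 and then both iGC groups, and 31 had their highest mean in IgE PC on that scale; the exceptions were Sec61g in IgG1 PC, Sec61a2 in D6 and Tusc3 in IgE iGC. Shares of all genes with that order or that highest group were not counted. On the TPM scale, 5 more genes had their highest mean elsewhere: in D6, Srp14 (159 ± 1.76 TPM, against 133 ± 6.66 in IgE PC), Srp54a (184 ± 4.93 against 166 ± 7.90), Srp72 (210.3 ± 7.78 against 176 ± 1.68) and Sec62 (58.6 ± 2.63 against 57.1 ± 4.90), and in IgE iGC Stt3b (177 ± 3.48 against 176 ± 7.36). Immunoglobulin transcripts take part of the TPM total. With immunoglobulin genes and Jchain left out, the mean sum of the 34 moved from 10160 to 17186 TPM in IgE PC. In D6 it moved from 5242 to 5414, and in IgE iGC from 3251 to 3382. The order of these 5 genes was not recomputed on that total. From D6 to IgE iGC, 25 genes fell and 2 rose, and from D6 to IgG1 iGC 27 fell and 2 rose. Over all genes 36.3% were lower and 32.8% higher in IgE iGC, and 36% and 32.4% in IgG1 iGC. The medians of the 34 were -0.54 and -0.59 log2.

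The genes that fell most from D6 were from each complex. Srp72 was at 320.2, 326 and 322 CPM in D6, 207, 201 and 207 in IgE iGC and 204, 206 and 204 in IgG1 iGC (log2 -0.66 and -0.66). Srprb was at 44.3, 47.5 and 45.8 in D6, and its log2 change was -0.64 in IgE iGC and -0.79 in IgG1 iGC. Sec61g was at 4.40, 3.41 and 4.57 in D6 (log2 -1.44 and -1.48). In TRAP, Ssr1 was at 313, 304 and 306 CPM in D6, 149, 149 and 143 in IgE iGC and 143, 149 and 151 in IgG1 iGC (log2 -1.06 and -1.06). Ssr3 was at 345, 356 and 351 in D6 (log2 -1.02 and -1.12). Spcs3 was at 237, 226 and 223 in D6, 142, 130.2 and 129 in IgE iGC and 121, 131 and 122 in IgG1 iGC (log2 -0.77 and -0.88). Rpn1, at 310.2, 314 and 305 CPM in D6, fell the most in OST (log2 -1.01 and -1.21). All these falls were called by edgeR with adjusted p-values from 1.58e-09 to 2.39e-04, and the D6 and iGC libraries did not overlap.

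The 2 genes that rose from D6 to both iGC groups were Tram2 and Stt3b. Tram2 was at 33.9, 31.6 and 32.4 CPM in D6, and rose by 0.92 in IgE iGC and 0.84 in IgG1 iGC (SE 0.059 and 0.059; edgeR adjusted p = 1.84e-09 and 5.65e-09). Stt3b was at 329, 359 and 365 in D6, and rose by 0.42 and 0.20 (SE 0.058 and 0.058; edgeR adjusted p = 1.11e-05 and 0.00758). Their paralogs Tram1 and Stt3a were at 235, 224 and 218 and 268, 262 and 262 CPM in D6, and had log2 changes of -0.13 and -0.77 in IgE iGC, of which the first was not called. The summed fibroblast markers were 142 to 192 TPM in D6 and 26.7 to 40.9 in the iGC groups, and their part in these differences was not tested. Thy1 had the highest mean of them, 64.4 TPM in D6, 13.9 in IgE iGC and 16.5 in IgG1 iGC.

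From D6 to IgE PC, 32 genes rose and 2 fell (36.9% and 39.5% of all genes), and from D6 to IgG1 PC 29 rose and 3 fell (35.9% and 36%). The medians were 1.65 and 0.98 log2. Tram2 rose most in both, by 4.32 (SE 0.065; 20.0-fold; edgeR adjusted p = 3.30e-16) and 3.65 (SE 0.063; 12.6-fold). In the other complexes the largest rises to IgE PC were those of Srprb (2.48), Ssr4 (2.50), Spcs1 (2.48) and Rpn1 (2.27). Ssr4 was at 97.5, 94.4 and 91.7 CPM in D6, 518, 537 and 546 in IgE PC and 508, 310.4 and 324 in IgG1 PC, and Spcs1 at 59.6, 64.0 and 61.7, 345, 328 and 359.8 and 256, 189 and 168 in the same groups. To IgG1 PC the largest were those of Srprb (1.71), Ssr4 (2.01), Sec11c (1.78) and Ddost (1.90), with Sec11c at 171, 167 and 162 and Ddost at 183, 167 and 168 CPM in D6. The genes that fell were Tusc3 and Sec61a2 in IgE PC (-0.91 and -0.44), and Tusc3, Srp54a and Srp72 in IgG1 PC (-0.35, -0.30 and -0.14). The Srp72 value lost its call under 5 of the alternatives, among them TMM without immunoglobulin genes (-0.088; edgeR adjusted p = 0.133) and the fits without D6 replicate 2 or IgG1 PC replicate 3, and the Srp54a value lost it with only the groups compared in the fit (edgeR adjusted p = 0.0676). Tusc3 was at 21.5, 18.8 and 19.3 CPM in D6, Sec61a2 at 11.5, 13.1 and 12.8 and Srp54a at 200.2, 199 and 186. Sec11a, at 57.5, 54.5 and 51.6 CPM in D6, had a log2 difference of 0.19 in IgG1 PC that turned to -0.094 under total-count scaling; Srp14 (0.28) and Stt3b (0.26) turned to -0.0043 and -0.026. The comparisons with D6 share its 3 libraries, and those from iGC to PC share the PC and iGC libraries with them.

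On the TPM scale, which is per length and so allows genes to be added up, the 34 genes together made up 10160.2 ± 113 TPM in IgE PC, 7120.2 ± 420.4 in IgG1 PC, 5242 ± 91.0 in D6, 3251 ± 35.9 in IgE iGC and 3074 ± 60.7 in IgG1 iGC (mean ± SD, n = 3). TPM is a share of the whole, and immunoglobulin transcripts take part of it: with immunoglobulin genes and Jchain left out, the sum was 17186 ± 284 in IgE PC and 11212 ± 1386 in IgG1 PC. OST was the largest block, at 3619, 3565 and 3408 TPM in the IgE PC libraries, 2679.9, 2525 and 2411 in IgG1 PC, 1141, 1147 and 1139.6 in IgE iGC and 1081, 1103 and 1054 in IgG1 iGC. Signal peptidase came next, at 2368, 2364 and 2408 in IgE PC, 1746, 1708 and 1492 in IgG1 PC and 673, 641 and 667 in IgE iGC. TRAP was at 1753, 1732 and 1752 in IgE PC, 1348, 1172 and 1148 in IgG1 PC, 406, 385 and 370.4 in IgE iGC and 368, 386 and 367 in IgG1 iGC. The channel group was at 1476, 1438 and 1442 in IgE PC, 1046, 982 and 942 in IgG1 PC, 494, 492 and 480.3 in IgE iGC and 443, 446 and 457 in IgG1 iGC. The SRP genes were the flattest: 1068, 1036 and 1050.5 in IgE PC, 579, 568 and 571 in IgE iGC, 708, 758 and 695 in IgG1 PC and 873, 879 and 874 in D6, so that IgG1 PC lay below D6 on this scale. With immunoglobulin genes and Jchain left out the order turned: the SRP genes summed to 1131 ± 74.9 TPM in IgG1 PC and 904 ± 2.86 in D6. On the TMM-scaled CPM scale, 5 of the 7 SRP genes were called higher in IgG1 PC than in D6 and 2 lower.

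**Figure D4:**
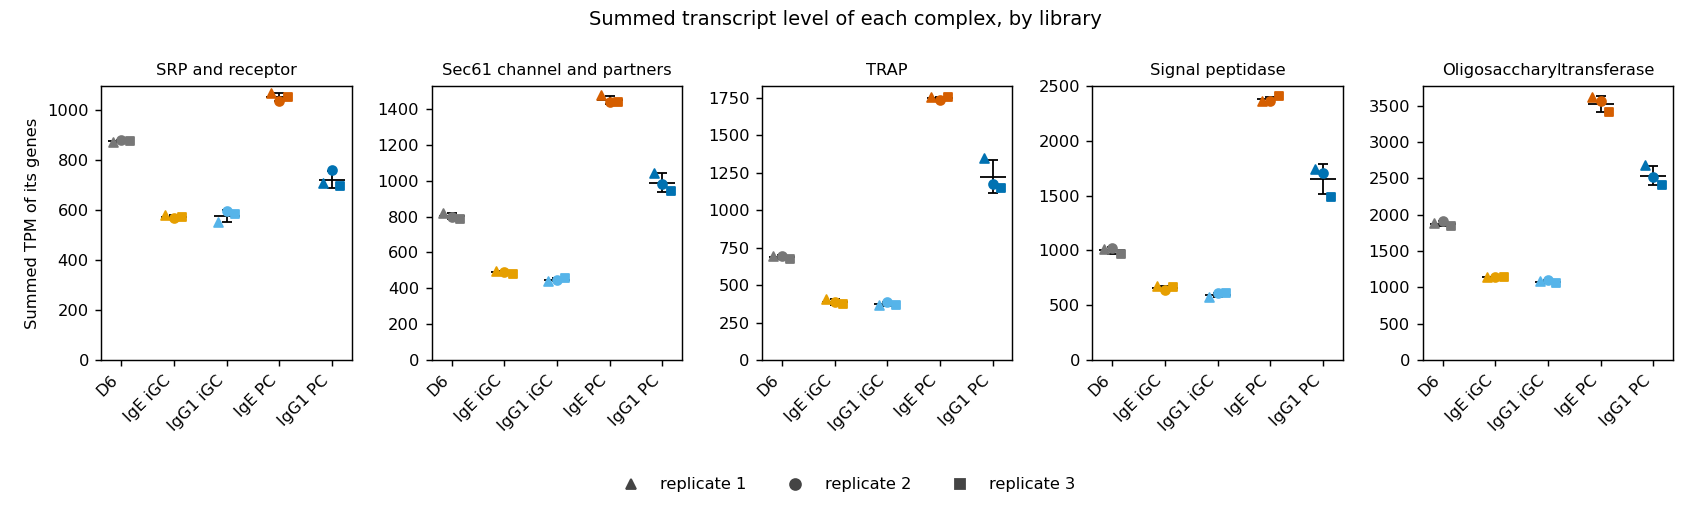
Summed TPM of the genes of each complex (y axis, from 0) in each of the 15 libraries, with the mean (line) and SD (bars) of each group of 3. In each panel the IgE PC libraries are the highest and the iGC libraries the lowest; only in the SRP panel does IgG1 PC lie below D6, an order that turns when immunoglobulin genes are left out of the total (means of 1131 in IgG1 PC and 904 in D6).

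Within the pairs of alternative subunits, the balance differed by group, given here as the share of the pair's TPM (mean ± SD, n = 3; description, no test). Sec61a2 held 12.5% ± 1.22 of the Sec61a pair in IgE iGC, 13.4% ± 0.303 in IgG1 iGC, 8.90% ± 0.333 in D6, 1.87% ± 0.127 in IgE PC and 3.30% ± 1.20 in IgG1 PC. Stt3b held 57.2% ± 1.03 of the Stt3 pair in IgE iGC, 53.3% ± 0.67 in IgG1 iGC, 36.8% ± 1.14 in D6, 25.6% ± 0.422 in IgE PC and 29.3% ± 1.38 in IgG1 PC, so on this scale it was the larger of the pair in both iGC groups and in no other group. Sec11a held 25.5% ± 1.34 of the Sec11 pair in IgE iGC, 13.7% ± 0.679 in IgE PC and 9.02% ± 1.01 in IgG1 PC. Tram2 went the other way: it held 7.03% ± 0.243 of the Tram pair in D6, 13.7% ± 0.93 in IgE iGC, 32.0% ± 2.05 in IgE PC and 39.2% ± 2.23 in IgG1 PC. Tusc3 held 42.3% ± 0.908 of the sum of Tusc3 and Magt1 in IgE iGC, 41.6% ± 3.02 in IgG1 iGC, 27.9% ± 1.54 in D6, 4.65% ± 0.355 in IgE PC and 14.7% ± 1.57 in IgG1 PC. The Tusc3 shares in IgG1 PC were 13.5%, 14.1% and 16.5% in replicates 1, 2 and 3, all above the 4.96%, 4.74% and 4.26% of IgE PC. As shares of expected counts, which are not corrected for length, the values differed (for Stt3b 75.2% in IgE iGC, 57.0% in D6 and 42.9% in IgE PC; for Sec61a2 6.09% in IgE iGC and 0.747% in IgE PC), but in each of the 5 pairs the PC means lay on the same side of the iGC means.

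**Figure D5:**
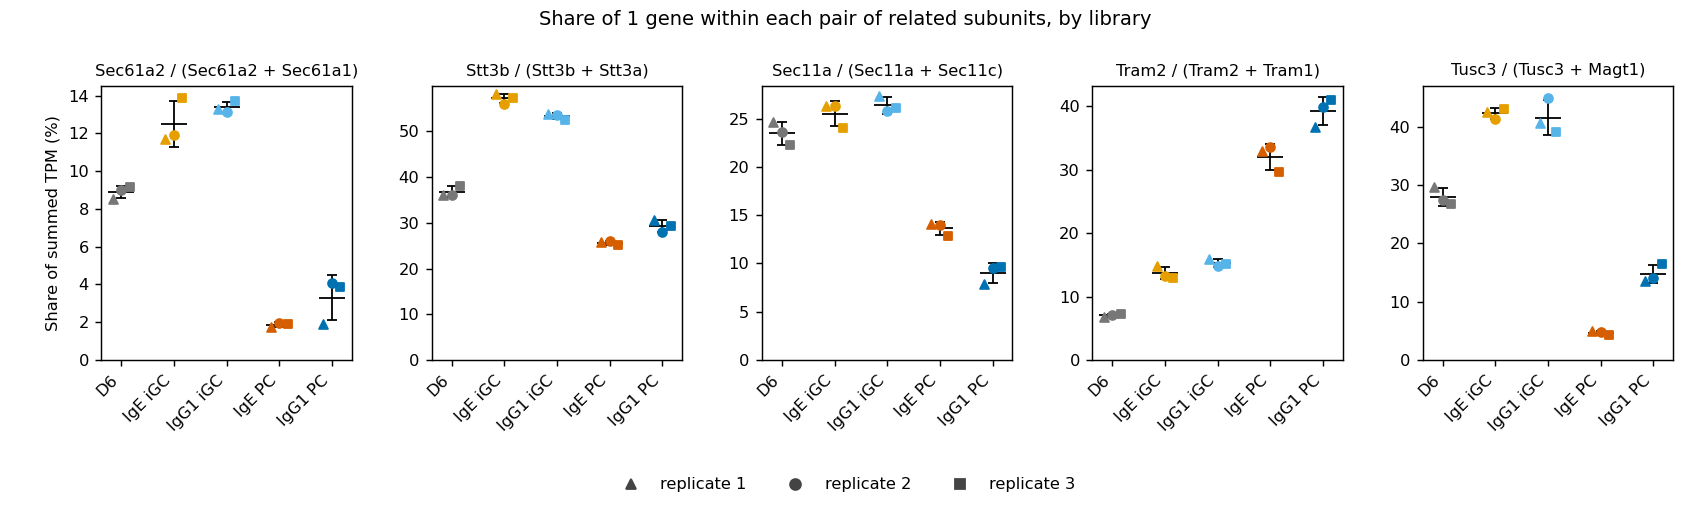
Share of the TPM of each pair of alternative subunits held by the named one (y axis, percent) in each of the 15 libraries, with the mean and SD of each group. The shares of Sec61a2, Stt3b, Sec11a and Tusc3 are lower in both PC groups than in the iGC groups, and that of Tram2 is higher.

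A further 3 lists of the same pathway put these changes beside those of neighbouring steps. The lists too were chosen by known function, with earlier results of these data known. Over all genes, 30.5% were called higher and 33.6% lower from iGC to PC in IgE, 30.1% and 29% in IgG1, and 27.4% and 30.7% in IgE PC against IgG1 PC. Of 6 other subunits of the same complexes, 6 rose from IgE iGC to IgE PC, 5 from IgG1 iGC to IgG1 PC, and 5 were higher in IgE PC than in IgG1 PC, with none lower in any of them. Besides Magt1 they include Srpr, the other subunit of the SRP receptor beside Srprb (log2 2.49 and 1.78 from iGC to PC in IgE and IgG1), and Mlec, a lectin associated with OST (1.58 and 0.97). Of 23 genes of the multipass translocon, the ER membrane complex (EMC) and the GET pathway, which insert membrane proteins, 16 rose and 3 fell in IgE and 11 rose and 3 fell in IgG1, while 9 were higher and 3 lower in IgE PC than in IgG1 PC. Their median log2 fold changes, 0.61 in IgE and 0.16 in IgG1, were below those of the 34. Those that rose include Nomo1 (1.41 and 0.70) and Emc7 (1.47 and 1.04, the largest rise of the list in each isotype). Of 27 genes that build the lipid-linked glycan or trim it after transfer, 21 rose and 1 fell in IgE, 20 rose and 1 fell in IgG1, and 17 were higher and 2 lower in IgE PC than in IgG1 PC. Their median log2 fold changes were 1.02 and 0.48. Among them Uggt1, which tags misfolded glycoproteins with glucose, rose by 2.04 and 1.09, Alg2, a mannosyltransferase of the glycan precursor, by 2.51 and 1.79, and Dhdds, a subunit of the enzyme that makes the dolichol chain, by 2.11 and 1.42. Between IgE iGC and IgG1 iGC none of the genes of the 3 lists was called by edgeR or by DESeq2. An unadjusted edgeR p under 0.05 was found for 1, 1 and 3 of them, and for 2348 of all 15692 genes.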

How the data were processed

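Per the labels' protocols, the 15 libraries were strand-specific and read from 1 end over 76 bp. The authors deposited 1 table with RSEM expected counts (estimated counts per gene, not whole where reads fit several genes) and TPM (scaled by the authors for length and library total) per library. The submitters' processing notes name GRCm38, STAR 2.5.2a, RSEM 1.3.0, cutadapt 1.9.1 and DESeq2 1.12.3 without their roles; the annotation is not given in the sources used here. Unmapped sample columns numbered 0. Symbols came from a table of Ensembl names that paired 51633 of the 51912 identifiers.

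Expected counts were rounded, filtered with filterByExpr (minimum count 10, minimum total 15) and scaled by TMM. All 15 libraries were fitted with 1 mean per group in edgeR 4.0.16 (R 4.3.3, glmQLFit and glmQLFTest), with Benjamini-Hochberg adjustment over 15692 genes and a threshold of 0.05. The fit holds 1 spread per gene for all 5 groups, while IgG1 PC was wider than the others. The p-values may therefore be too small in contrasts with IgG1 PC and too large between the iGC groups. CPM values are TMM-scaled. Standard errors are log2 fold changes divided by the square root of F, which is approximate. The script was tested on simulated data. Alternatives were total-count scaling, TMM without immunoglobulin genes, DESeq2 1.42.0, no filter, only the groups compared, a replicate block and each library left out. The CCAAT and CCACG searches and the relation to length were added after the data were seen.

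The members and lists were chosen with earlier results of these data known. Genes named with values in every library are the called genes with the largest rise and fall of each complex in each contrast and the pairs of alternative subunits; of the other lists, those with the smallest p. Sec63, among the 5 genes at least 2-fold higher in IgE PC, was named after its values were seen. Without molecular identifiers, reads cannot be counted as separate molecules.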

Additional observations from a re-analysis of the deposited data

Results flagged for a closer look

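For 24 of the 34 genes the isotypes differed in their iGC-to-PC change, by the test of that difference (edgeR interaction, adjusted p under 0.05). This test shares its PC libraries with the comparison of IgE PC and IgG1 PC and is not separate evidence. For these genes positive values mean a larger rise in IgE. Over all genes, 19.8% were called with positive values and 23.1% with negative values. Leaving out 1 library gave 24 to 32 calls among the 34. On the log2 scale the SRP genes had values of 0.67 (Srp9), 0.43 (Srp14), 0.77 (Srp19), 1.04 (Srp54a), 0.63 (Srp68), 0.78 (Srp72) and 0.63 (Srprb). The channel genes had 0.74 (Sec61a1), 0.58 (Sec62), 0.97 (Sec63), 1.01 (Tram1) and 0.59 (Tram2), and the TRAP genes 1.01 (Ssr1) and 1.31 (Ssr3). In signal peptidase the values were 0.66 (Spcs1), 0.63 (Spcs2), 0.83 (Spcs3) and 0.82 (Sec11a). In OST they were 0.58 (Rpn1), 0.45 (Rpn2), 1.00 (Stt3a), 0.66 (Stt3b), 0.67 (Ostc) and -0.65 (Tusc3). For Srp14 and Rpn2 the adjusted p rose to 0.142 and 0.0884 under total-count scaling (edgeR).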

How the results depend on the processing

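Over all contrasts and alternatives, 3738 values of the 34 genes kept their side of the threshold, 86 lost the call, 47 gained one and 5 changed sign with a call on at least 1 side (sign changes of values called on neither side are not counted). All 5 did so under total-count scaling: from IgG1 iGC to IgG1 PC, Srp54a became -0.016 and Stt3b -0.17, and from D6 to IgG1 PC, Sec11a became -0.094, Srp14 -0.0043 and Stt3b -0.026; the cause was not tested. The 1 call between IgE iGC and IgG1 iGC became 0 with TMM without immunoglobulin genes, 0 without a filter, 2 with DESeq2 and 6 with only those groups in the fit; with each library left out it was 0 (range 0 to 0). In the other contrasts every count stayed within 1.5 times its main value. Leaving out 1 library gave 28 to 33 calls between IgE PC and IgG1 PC, and 24 to 32 in the interaction. With a replicate block, the counts were 33 (IgE) and 31 (IgG1) from iGC to PC, 31 between PC groups, 0 between iGC groups and 25 in the interaction. Deviations of same-numbered libraries had a mean correlation of -0.0068, and 7 of 15 libraries were closest to their own number. By pair of groups the mean correlation ran from -0.119 (IgG1 iGC with IgG1 PC) to 0.0801 (IgG1 iGC with IgE PC). These values cannot settle whether same-numbered libraries shared a culture. Depth limits Sec61g, at 1.15 to 14.5 CPM, and Sec61a2 and Tusc3, at under 22 CPM, more than the other genes.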
